A study of Homo sapiens with 22 samples.

Results

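The genes described here are 9 members of the fibroblast growth factor (FGF) system: the ligands FGF1, FGF2, FGF5 and FGF7, the receptors FGFR1, FGFR2, FGFR3 and FGFR4, and FGFBP2, a secreted protein named for FGF binding. They were chosen by gene symbol, with earlier results of these data known. Each of the 9 symbols had 1 row among the 33538 genes of the first single-cell table and among the 36601 genes of each of the others. FGFR3 had almost no counts, so that 8 members carry the results.

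FGF ligands are secreted proteins that bind receptor tyrosine kinases of the FGFR family together with heparan sulfate, and receptor activation feeds the RAS and ERK pathway and the PI3K pathway. FGF1 and FGF2 lack a classical signal peptide, FGF5 and FGF7 are secreted by the classical route, and FGF7 is best known as a ligand that stromal cells make for an epithelial form of FGFR2. In melanoma, FGF2 is known as an autocrine growth factor, and FGFR signalling is one of the receptor routes linked with survival under inhibitors of mutant BRAF.

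The study asked how melanoma cells keep or lose a drug-naive state called primed, whose cells more often survive targeted therapy than the drug-susceptible majority. WM989 and WM983B are established human melanoma lines. The first experiment held untreated WM989 cells with lineage barcodes in 8 wells of droplet single-cell RNA-seq, 4 in each of 2 replicates named r1 and r2, of which some began from a sort on high EGFR and NGFR and the rest from mixed cells. The cell labels do not give the sort of a well. A well here is a loading well of the droplet chip, and per the study's methods the cells of each harvested culture were divided over 2 of them, so that the 8 wells are not 8 separate cultures. The second experiment held untreated WM983B cells in 1 library. The third held WM989 cells treated for 5 days with nothing (Control), with the cytokine TGFB1 at 5 ng/mL, with the TGFB receptor inhibitor LY2109761 at 4 µM (TGFBRi) or with the PI3K inhibitor GDC-0941 at 2 µM (PI3Ki), in 2 parallel replicates and 8 libraries. Sample labels call these replicates Mix and Primed and cell labels call them r1 and r2. Their match was not settled here, and r1 and r2 are used. ATAC-seq, which marks open chromatin, was made from 12 WM989 libraries in 4 sorts of 3 libraries: Mix, EGFR-High, NGFR-High and EGFR-NGFR-High. The study's methods describe cells negative for both markers where the labels say Mix, so that the baseline of the ATAC-seq comparisons may be either.

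Levels are given as CPM, the gene's share of all unique molecular identifiers (UMIs) of the summed cells, on the standard CPM scale. The first experiment held 12531 cells in 11 clusters, of which 2843 were labelled primed and 9688 drug-susceptible, with 35882876 to 177318308 UMIs a well. WM983B gave 1449 cells, 731 of them primed, and 102738398 UMIs. The treatment experiment gave 40021 cells in 13 clusters and 70239657 to 122420544 UMIs a library, and its primed cells ranged from 25 to 1757 a library. Libraries shared 19 cell barcodes (0.152% of the cells) in the first and 194 (0.487%) in the treatment experiment. All 7 melanocytic markers had UMIs in both states of every experiment, but their summed level in WM989 cells of the first experiment was 272 CPM in the primed and 5453 CPM in the other state. Of the 4 markers of fibroblasts, COL1A1, PDGFRA and DCN stood at 160, 47.3 and 6.19 CPM in these primed cells against 1.69, 0.734 and 1.33 CPM, LUM stood the other way at 16.9 against 32.2 CPM, and the endothelial marker PECAM1 at 22.8 against 0.183 CPM. Summed markers of keratinocytes and of immune cells did not pass 1.33 CPM in any experiment, and the part of these markers in the results below was not tested. The states were called by the authors from the same counts, so that state differences in the first and second experiments are descriptions without a test.

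The windows just before annotated starts with open chromatin are shown for 5 members on which the state and treatment results turn. In primed WM989 cells of the first experiment the ligands FGF1, FGF5 and FGF7 were higher, and FGFR4 and FGFBP2 were lower. Each window holds the 250 bases before an annotated start in RefSeq's GRCh38.p14, and each overlapped an ATAC-seq peak in 12 of 12 libraries. Windows were matched for 8 of the 9 members, all but FGFR1. Capitals mark matches, on either strand, to 5 motifs that were searched: AP-1 (TGANTCA), an E-box read by MITF (CATGTG), TEAD (GGAATG), SOX (ACAAAG) and SMAD (CAGAC).
FGF1, chr5:142686091-142686340, minus strand: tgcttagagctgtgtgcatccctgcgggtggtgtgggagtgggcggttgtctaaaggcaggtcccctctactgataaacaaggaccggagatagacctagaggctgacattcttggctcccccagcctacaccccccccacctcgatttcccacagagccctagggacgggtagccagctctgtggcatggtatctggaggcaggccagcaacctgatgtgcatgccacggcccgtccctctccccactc
FGF5, chr4:80266338-80266587, plus strand: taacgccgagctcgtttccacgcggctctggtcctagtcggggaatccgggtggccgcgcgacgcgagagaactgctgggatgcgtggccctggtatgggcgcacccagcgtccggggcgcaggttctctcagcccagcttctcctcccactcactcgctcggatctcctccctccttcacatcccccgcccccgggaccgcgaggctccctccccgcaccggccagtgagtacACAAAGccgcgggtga
FGF7, chr15:49422992-49423241, plus strand: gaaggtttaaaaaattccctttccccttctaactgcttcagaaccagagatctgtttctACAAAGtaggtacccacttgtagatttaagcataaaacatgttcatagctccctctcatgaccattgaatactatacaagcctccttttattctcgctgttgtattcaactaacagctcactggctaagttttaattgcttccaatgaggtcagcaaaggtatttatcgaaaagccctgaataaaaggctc
FGFR4, chr5:177086665-177086914, plus strand: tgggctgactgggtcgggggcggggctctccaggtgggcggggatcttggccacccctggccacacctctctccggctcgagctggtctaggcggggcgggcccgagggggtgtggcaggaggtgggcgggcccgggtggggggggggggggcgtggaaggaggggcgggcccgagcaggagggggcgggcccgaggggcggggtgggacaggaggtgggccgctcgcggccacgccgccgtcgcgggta
FGFBP2, chr4:15963176-15963425, minus strand: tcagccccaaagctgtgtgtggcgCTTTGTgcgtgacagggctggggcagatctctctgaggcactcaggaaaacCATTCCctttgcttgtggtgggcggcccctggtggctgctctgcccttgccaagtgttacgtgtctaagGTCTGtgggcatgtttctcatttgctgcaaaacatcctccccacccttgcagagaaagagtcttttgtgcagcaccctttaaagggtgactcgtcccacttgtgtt
Among 35116 promoter windows of the same length, 6.57% held the AP-1 motif, 9.42% the E-box, 11.9% the TEAD, 13.7% the SOX and 38.0% the SMAD motif. The FGF5 and FGF7 windows held 1 SOX match each, and the FGFBP2 window held 1 match each to the SOX, TEAD and SMAD motifs. No match was found in the FGF1 and FGFR4 windows shown. The share of G and C bases ran from 38.4% at FGF7 to 79.6% at FGFR4, with 60.8% at FGF1, 68.8% at FGF5 and 54.8% at FGFBP2, against a median of 58.0% over all windows. These letters describe the windows and say nothing of what binds there.

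In untreated WM989 cells all 4 ligands and FGFR1 were higher in primed than in drug-susceptible cells in each of 8 wells, and FGFR4 and FGFBP2 were lower in each of 8 wells. Of the 7 members with at least 1 CPM in a state, 5 were over 2-fold higher in primed cells, against 13.7% of the 13194 genes measured, and 2 were over 2-fold lower, against 7.91%. FGF2, FGF5 and FGF7 reached 1 CPM only in the primed state, so that they could enter this count only as higher there. The same rule was used for all genes. The sum over wells gave FGF1, a ligand that can bind all FGF receptors, at 31.1 CPM (95% Poisson interval 30.3 to 31.9) in the primed and 2.11 CPM in the drug-susceptible state, or 14.7-fold. By well, primed FGF1 stood at 39.97, 32.0, 29.3 and 31.0 CPM in the wells of r1 and at 28.9, 26.0, 32.4 and 40.6 CPM in those of r2, while drug-susceptible FGF1 ranged from 0.868 to 2.29 CPM. The lowest primed well thus lay far above the highest drug-susceptible well. The ratio was 15.2 in r1 alone and 14.5 in r2 alone.

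FGF7 gave the highest ratio of the states among the members, 62.0 (19.2 against 0.310 CPM), but its level moved with the well. From the means of the wells the ratio was 41.7. Primed FGF7 stood at 20.6, 19.0, 8.42 and 5.92 CPM in the wells of r1 and at 24.7, 19.3, 19.0 and 18.9 CPM in those of r2. Both low values came from r1 and the other 6 wells lay close together, and the highest drug-susceptible well had 0.735 CPM. FGF7 has near-identical copies elsewhere in the genome that can share its reads, so its level is uncertain. FGF5, a ligand known from the hair cycle, stood at 10.2 CPM in the primed against 0.473 CPM in the other state, a ratio of 21.6, with primed wells at 11.7, 7.82, 6.06, 6.35, 11.8, 11.3, 15.3 and 16.2 CPM. Its lowest primed well lay above its highest drug-susceptible well, which had 0.662 CPM.

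FGF2, the basic FGF, was the ligand whose primed level differed most between wells as a ratio, though not in CPM. It stood at 4.65 and 5.59 CPM in the first and second wells of r1 and at 5.15 and 5.80 CPM in those of r2, but at 0.739, 1.27, 1.56 and 2.50 CPM in the other 4 wells. The same wells were high and low in the primed cells' EGFR, which ranged from 50.4 to 57.8 CPM in the first 4 named and from 19.1 to 25.4 CPM in the others. They also differed in the share of primed cells, from 56.9% to 79.7% against 6.85% to 9.42%. The part of the wells' makeup in the FGF2 levels was not tested. Pooled FGF2 was 4.78 against 0.571 CPM, a ratio of 8.37. The ratio was 13 in G1 cells alone and 6.61 from the means of the wells. In the lowest well it was 0.739 against 0.677 CPM. FGF2 overlaps the antisense gene NUDT6 at its end.

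Among the receptors, FGFR1 and FGFR4 went opposite ways. FGFR1, the receptor most widely found on mesenchymal cells, stood at 58.1, 53.4, 58.4 and 49.6 CPM in the primed cells of the r1 wells and at 77.3, 78.5, 69.9 and 63.9 CPM in those of r2, against 10.3 to 18.4 CPM in the other state. The sums gave a ratio of 4.59. FGFR4, known from liver and muscle, stood at 1.34 to 3.10 CPM in primed and at 5.92 to 10.3 CPM in drug-susceptible cells of the 8 wells, 3.71-fold lower over the sums (1.90 against 7.04 CPM). Neither receptor's groups of wells overlapped. FGFR2 was low, with 30 UMIs in all primed and 136 UMIs in all drug-susceptible cells (0.156 and 0.244 CPM), under the 1 CPM set for a gene to be counted as measured. FGFR3 had 0 UMIs in both states, which allows levels of up to 0.0156 CPM (primed) and 0.00537 CPM (drug-susceptible).

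FGFBP2, which is also known as a protein released by cytotoxic lymphocytes, was lower in primed cells, at 3.80 against 17.7 CPM, 4.64-fold. In drug-susceptible cells it was 31.0 and 34.2 CPM in the first pair of wells of r1, 6.02 and 6.68 CPM in the first pair of r2 and 13.9 to 18.5 CPM in the other 4, so that wells of 1 state differed severalfold. In the same order the primed cells had 9.83 and 4.77 CPM, then 2.11 and 1.86 CPM, and 1.92 to 3.28 CPM in the others. The fold was 3.77 in r1 and 6.24 in r2.

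**Figure D1:**
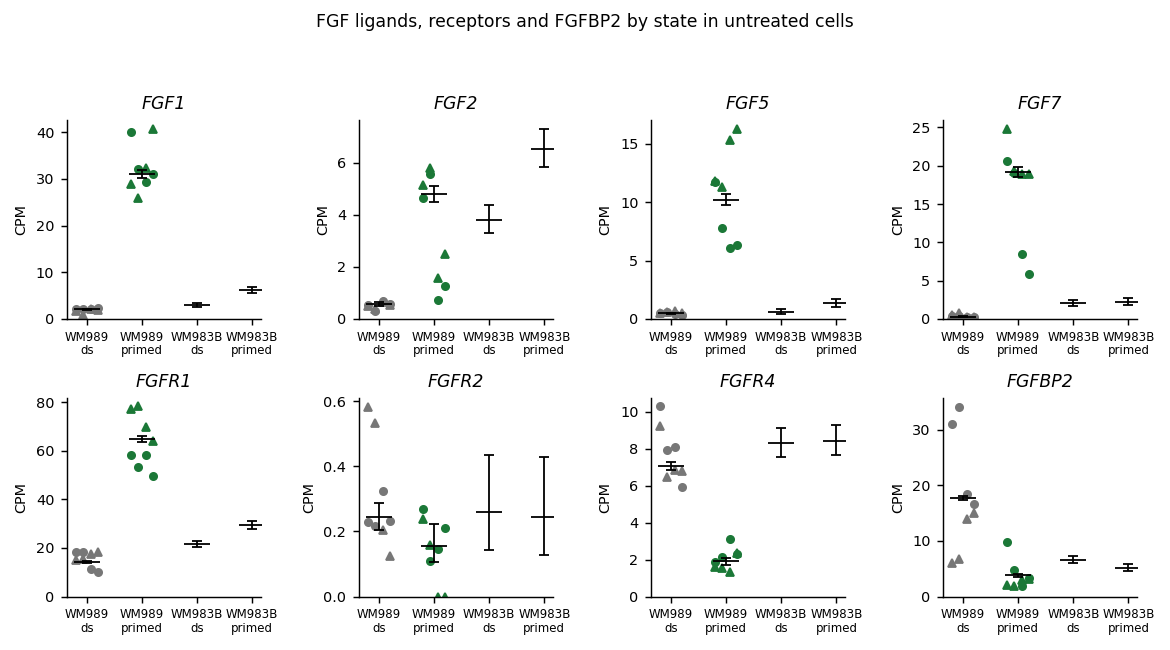
CPM of 8 members in drug-susceptible (ds, grey) and primed (green) untreated cells of WM989 and WM983B. Points are WM989 wells (circles r1, triangles r2), and black bars are the CPM of all cells with 95% Poisson intervals, which cover counting error only. FGF1, FGF5, FGF7 and FGFR1 lie higher and FGFR4 and FGFBP2 lower in the primed wells of WM989. WM983B, with 1 library, has pooled values only.

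Shares of cells follow the levels. A FGF1 UMI was found in 69.4% of the primed (Clopper-Pearson interval 67.6 to 71.1%) and in 9.64% of the other cells, at medians of 58250 and 52840 UMIs a cell, and in 25.5% and 1.88% once each cell was thinned to 10000 UMIs. FGFR1 UMIs were found in 87.4% and 43.7% of cells, and in 42.3% and 11.7% after thinning. For FGF5 the thinned shares were 8.90% and 0.423%, for FGF7 11.3% and 0.268% and for FGF2 3.34% and 0.475%. For FGFR4 and FGFBP2 the order was the other way, 1.51% against 6.35% and 3.62% against 14.7%. Drug-susceptible shares hold any free RNA in the droplets, and no cell type that should lack these genes was present to set that level.

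Although 705 of 2843 primed cells had a FGF7 UMI, FGF7 was concentrated in few of them. Of its 3689 UMIs in primed cells, 62.6% lay in the 143 cells (5%) with the most, up to 64 UMIs in 1 cell, and a primed cell with any FGF7 UMI had 5.23 on average. The same share of cells held 23.8% of the FGF1 and 21.6% of the FGFR1 UMIs. For members with fewer UMIs this measure is high at any spread, as at FGFR4 (51.5%, with 1.14 UMIs in a positive cell), so that it is not read for FGF2 and FGFBP2. A single primed cell held 97 of the 731 FGFBP2 UMIs.

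RNA of a ligand and of a receptor was often found in the same primed cell of the first experiment. UMIs of FGF1 and of FGFR1 occurred together in 62.0% of the primed and 5.81% of the drug-susceptible cells, and neither in 5.21% and 52.4%. The share with both depends on depth, and was 11.2% against 0.341% after thinning to 10000 UMIs. Without thinning it was 23.7% against 13.2% in WM983B and 18.3% against 2.04% in the treatment experiment. At least 1 of the 4 ligands was found in 85.4% of primed cells, at least 2 in 48.3% and at least 3 in 16.2%, against 15.7%, 1.15% and 0.0516% of drug-susceptible cells. Within primed cells of the first experiment, FGF1 was found after thinning in 26.4% of cells with and 24.9% of cells without a FGFR1 UMI. These shares were 18.2% and 14.8% in WM983B and 25.7% and 24.5% in the treatment experiment, each thinned to its own depth. The share was higher in cells with a FGFR1 UMI in each library of the treatment experiment, by little in some, and no test was made.

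Among the 3 primed clusters of WM989 the members were uneven. FGF1 was highest in cluster 2 (35.5 CPM), then 8 (28.7) and 9 (22.3), with intervals that did not touch, and the 8 drug-susceptible clusters ranged from 0.967 to 3.68 CPM. FGF7 was 26.3 CPM in cluster 2 against 10.3 and 8.51 in clusters 8 and 9, whose intervals overlapped. FGF5 had another order, with 13.7 CPM in cluster 9 above 9.36 in cluster 2 and 7.90 in cluster 8. FGF2 stood at 5.82, 2.16 and 4.06 CPM and FGFR1 at 70.3, 54.5 and 59.2 CPM in clusters 2, 8 and 9. Drug-susceptible cluster 4, with 1202 cells, had the highest level outside the primed clusters of FGF1 (3.68 CPM), FGFR1 (21.4) and FGF7 (0.603). It also had the highest FGFBP2 of all 11 clusters, 37.8 CPM against 11.1 to 16.7 in the other drug-susceptible and 2.04 to 5.16 in the primed clusters. FGFR4 was 1.62 to 2.32 CPM in the primed and 5.65 to 7.84 CPM in the drug-susceptible clusters. The cells were clustered on these counts, so that differences between clusters are descriptions.

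**Figure D2:**
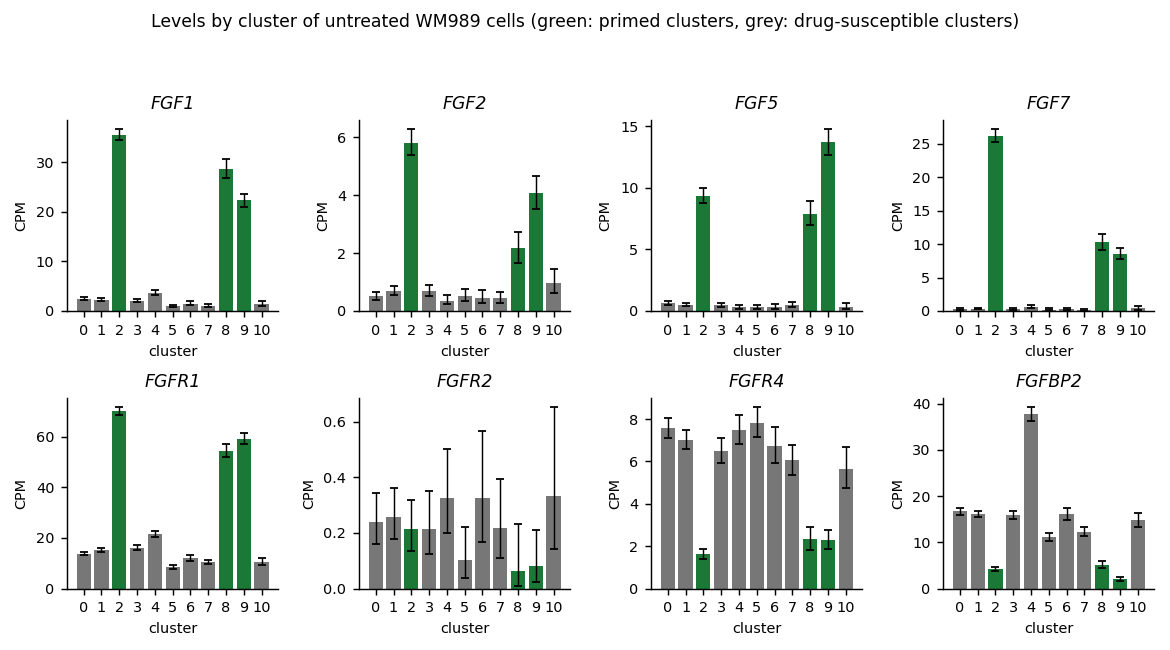
CPM of 8 members in the 11 clusters of untreated WM989 cells, with primed clusters in green and drug-susceptible clusters in grey. Bars are summed levels with 95% Poisson intervals, which cover counting error only. FGF1 and FGF7 peak in cluster 2, FGF5 in cluster 9 and FGFBP2 in drug-susceptible cluster 4.

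Cell cycle phase went with some ligands. In primed cells labelled G1, S and G2M, FGF1 stood at 34.6, 28.0 and 19.0 CPM and FGF7 at 23.2, 6.69 and 11.1 CPM, whereas FGF5 stood at 9.28, 12.1 and 12.8 CPM. Within G1 cells alone the ratio of the states was 14.8 for FGF1, 26.4 for FGF5 and 53.1 for FGF7.

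The genes whose levels went most closely with each member over the 11 clusters were ranked by Pearson's r of log2(CPM + 1) over 7021 candidates that reached 20 CPM in some cluster. The clusters share libraries and fall into states, and r is given as a description with no p. For FGF1 they were NR2F1 (r = 0.996), a nuclear receptor of the neural crest, CRIP2 (0.993) and TGFB1 (0.992), the cytokine used as a treatment here. FGFR1 shared CRIP2 (0.994) and TGFB1 (0.991) with it, beside S100A3 (0.991). For FGF7 the closest were IL6 and CCL5 (both 0.997), an inflammatory cytokine and a chemokine, and AC016831.5 (0.996). For FGF2 they were MPC2 (0.992), NRG1 (0.987) and G0S2 (0.984), and for FGF5 PLP2 (0.996), MT2A (0.994) and LYPD6B (0.994). For the members that were lower in primed cells they were AFAP1L1 (0.989), GOLM1 (0.986) and PRKAR2B (0.985) at FGFR4, and LSAMP (0.974), ST8SIA1 (0.972) and IL17D (0.962) at FGFBP2.

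In WM983B the states differed far less in these genes. Of the 7 members measured, FGF1 and FGF5 were over 2-fold higher in primed cells, against 2.87% of 13769 genes, and 0 were over 2-fold lower, against 1.37%. FGF1 stood at 6.21 against 2.97 CPM (primed against drug-susceptible) and FGF5 at 1.35 against 0.594 CPM. FGF5 reached 1 CPM only in the primed state, so that it could enter the count above only as higher there. Its levels rest on 66 primed and 32 drug-susceptible UMIs, and in G1 cells alone its ratio was under 2-fold. For both FGF1 and FGF5 the 95% counting interval of the ratio reached below 2-fold. FGF2 was 6.53 against 3.80 CPM and FGFR1 29.5 against 21.5 CPM. FGF7 was 2.27 against 2.096 CPM over all phases, but 3.86 against 1.93 CPM in G1 cells and 1.07 against 1.99 CPM in G2M cells. FGFR4 was 8.44 against 8.31 CPM, and FGFBP2 was 5.18 against 6.66 CPM. Within the states FGFBP2 differed more, since the small primed cluster 2 (91 cells) had 13.02 CPM and the large primed cluster 0 had 3.99 CPM. The small drug-susceptible cluster 3 (90 cells) had 5.75 CPM of FGF1 (95% interval 4.16 to 7.74), close to the 5.95 CPM of primed cluster 0, against 2.52 CPM in drug-susceptible cluster 1. Its FGF5 level was 1.07 CPM, with an interval that overlapped those of all 3 other clusters. FGFR3 had 14 primed and 5 drug-susceptible UMIs (0.287 and 0.0928 CPM), too few to be counted as measured. Among the 7 members measured the largest ratio was 2.28, at FGF5. The lines were measured in separate experiments, with 1 library of WM983B and other chemistry, and the difference between lines was not tested.

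Lists of the wider FGF system were read against the 13.7% of all genes that were over 2-fold higher and the 7.91% that were over 2-fold lower in primed WM989 cells. A gene was measured if it reached 1 CPM in either state, so that some entered only through the state in which they were higher. Of 16 feedback and target genes of FGF and ERK signalling, 7 were over 2-fold higher and 2 lower, and the median log2 ratio was 0.91 against 0.07 for all genes. CCND1 (cyclin D1) was 4100 against 445 CPM, ETV1 117.5 against 19.3 CPM, the phosphatase DUSP6 185 against 68.8 CPM and the RTK inhibitor SPRY1 51.4 against 22.1 CPM, whereas the ETS factors ETV4 and ETV5 were lower, at 51.4 against 154 CPM and 75.8 against 209 CPM. S100A13 and SYT1, which are known to take part in the release of FGF1, were both higher, at 1545 against 319 CPM and 1.48 against 0.107 CPM. Among 9 co-receptors and binding proteins measured, 3 were higher (FGFRL1, 14.6 against 1.998 CPM, SDC1, 12.8 against 2.18 CPM, and GPC6) and 2 lower (SDC3, 17.8 against 47.2 CPM, and GPC4). Of 10 adaptors 1 was higher, SOS1 (65.5 against 23.3 CPM), and of the other 14 FGF ligands 2 were measured and 0 passed 2-fold, shares that are at or below those of all genes. Both intracellular FGF homologues measured were lower, FGF13 at 0.344 against 1.01 CPM and FGF14 at 0.880 against 5.65 CPM. In WM983B, where 2.87% of all genes were over 2-fold higher, 2 of 16 feedback and target genes (SPRED3 and DUSP5), 3 of 6 co-receptors and binding proteins (FGFRL1, SDC2 and SDC4, at ratios of 2.12, 2.44 and 2.27) and SYT1 (2.90) passed 2-fold upward.

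The treatment experiment was made to see how TGFB1 and PI3K signals change the share of primed cells. It has replicates, so that each treatment was tested against Control for these genes. UMIs were summed per library over all cells, over drug-susceptible cells or over primed cells, and tested with edgeR's quasi-likelihood test with terms for treatment and replicate (2 libraries a group, Benjamini-Hochberg over all genes, threshold 0.05). In sums over all cells, fewer cells of a type and less RNA per cell cannot be told apart.

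Over all cells 4 of the 8 members tested were called under TGFB1, against 29.0% of genes, with FGF1, FGF5 and FGF7 up and FGFR4 down. FGF1 stood at 3.45 and 4.14 CPM in the Control and 22.9 and 25.0 CPM in the TGFB1 libraries of r1 and r2, and rose by 2.65 ± 0.09 on the log2 scale (SE, adjusted p = 5.745e-16), 6.26-fold. FGF5 stood at 1.02 and 0.735 against 2.01 and 2.18 CPM and rose by 1.24 ± 0.18 (adjusted p = 8.817e-06). FGFR4 stood at 6.61 and 6.79 against 3.60 and 3.86 CPM, a log2 change of -0.86 ± 0.10 (adjusted p = 2.653e-07). In each of these 3 genes both TGFB1 libraries lay outside both Control libraries. The primed share of cells was 2.26% and 4.47% in Control and 29.1% and 31.3% under TGFB1, so that the sums over all cells hold this shift. FGF7 rose by 1.199 ± 0.35 (adjusted p = 0.0111) on 8 and 21 UMIs against 36 and 34, and this call was lost with DESeq2 (adjusted p = 0.165), without Control r1 (log2 0.62, adjusted p = 0.354) and without TGFB1 r1 (log2 0.84, adjusted p = 0.225). Its log2 change was 2.08 without Control r2.

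Within drug-susceptible cells FGF1 rose and FGF5 did not pass the test. Called were 3 of 7 members, against 14.9% of genes. FGF1 went from 2.76 and 2.78 CPM in Control to 10.8 and 10.6 CPM, a rise of 1.94 ± 0.10 (adjusted p = 2.679e-12, 3.83-fold), with both replicates close in each group. These cells were not of the same clusters, since cluster 3 held 1.38% and 1.67% of drug-susceptible cells in Control and 56.8% and 42.0% under TGFB1. In the other drug-susceptible clusters FGF1 stood at 2.65 and 2.71 CPM in Control and 7.50 and 6.55 CPM under TGFB1. In cluster 3 it stood at 12.75 and 7.88 CPM in Control, on 11 and 8 UMIs, and at 14.1 and 18.1 CPM under TGFB1. These values are given as a description with no test. FGFR4 went from 6.71 and 6.87 to 3.49 and 4.098 CPM, a log2 change of -0.85 ± 0.10 (adjusted p = 1.566e-06). FGF5 stood at 0.808 and 0.553 against 0.719 and 0.608 CPM, a log2 change of -0.05 ± 0.23 with overlapping libraries (adjusted p = 0.927). FGFR1 was 18.0 and 18.1 against 15.5 and 18.6 CPM. FGFBP2 stood at 13.1 and 11.9 against 19.9 and 14.02 CPM and rose by 0.42 ± 0.09 (adjusted p = 0.00223), a call that was lost without TGFB1 r1 (log2 0.20, adjusted p = 0.313) and without the replicate block (adjusted p = 0.121).

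Within primed cells TGFB1 went with lower FGFR1 and FGFBP2. Of the 4 members that had counts enough to be tested 3 were called, against 13.3% of genes. FGFR1 stood at 85.0 and 108 CPM in Control and at 31.1 and 41.3 CPM under TGFB1, a log2 change of -1.35 ± 0.15 (adjusted p = 1.39e-09, 2.55-fold lower). FGFBP2 stood at 17.1 and 32.2 CPM against 5.07 and 4.97 CPM, -2.32 ± 0.25 (adjusted p = 1.287e-09, 4.98-fold lower). Both TGFB1 libraries lay under both Control libraries in each gene, and without Control r2 the log2 change of FGFBP2 was -1.53 (adjusted p = 0.00706). FGF1 was 42.5 and 46.7 against 58.8 and 65.1 CPM, a rise of 0.56 ± 0.15 (adjusted p = 0.00778) that was lost with DESeq2 (adjusted p = 0.108) and without any 1 of the 4 Control and TGFB1 libraries (adjusted p from 0.0713 to 0.305, log2 change from 0.49 to 0.66). FGF5 was 13.4 and 6.44 against 5.87 and 6.58 CPM and did not pass (adjusted p = 0.502). The Control sums rest on 94 and 165 primed cells, those of TGFB1 on 1577 and 1757.

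These primed cells were not of the same cluster. Cluster 10 held 89 of 94 and 159 of 165 primed cells in Control, whereas cluster 4 held 1548 and 1706 primed cells under TGFB1 and cluster 10 only 29 and 51. Within the TGFB1 libraries, FGFR1 stood at 59.0 and 58.5 CPM in cluster 10 and at 30.6 and 40.8 CPM in cluster 4, and FGFBP2 at 47.7 and 61.7 CPM against 4.30 and 3.36 CPM. FGF1 went the other way, with 33.7 and 45.5 CPM in cluster 10 and 59.3 and 65.6 CPM in cluster 4. In cluster 10 of Control FGFR1 stood at 87.8 and 110 CPM, FGF1 at 45.9 and 46.9 CPM and FGFBP2 at 18.5 and 33.5 CPM. Cluster 10 under TGFB1 thus had FGFBP2 above and FGFR1 below the Control values of the same cluster in summed CPM. The TGFB1 values of cluster 10 rest on only 29 and 51 cells, and these differences were not tested. Over all libraries, drug-susceptible cluster 3 had 15.3 CPM of FGF1, the highest of any drug-susceptible cluster, and 20.1 CPM of FGFBP2. The clusters were drawn from these counts, and no test was made of cluster against cluster. The tests in primed cells above compare sums mostly of cluster 4 under TGFB1 with sums mostly of cluster 10 in Control. Their p-values thus do not separate treatment from cluster, and the labels come from the same counts.

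**Figure D3:**
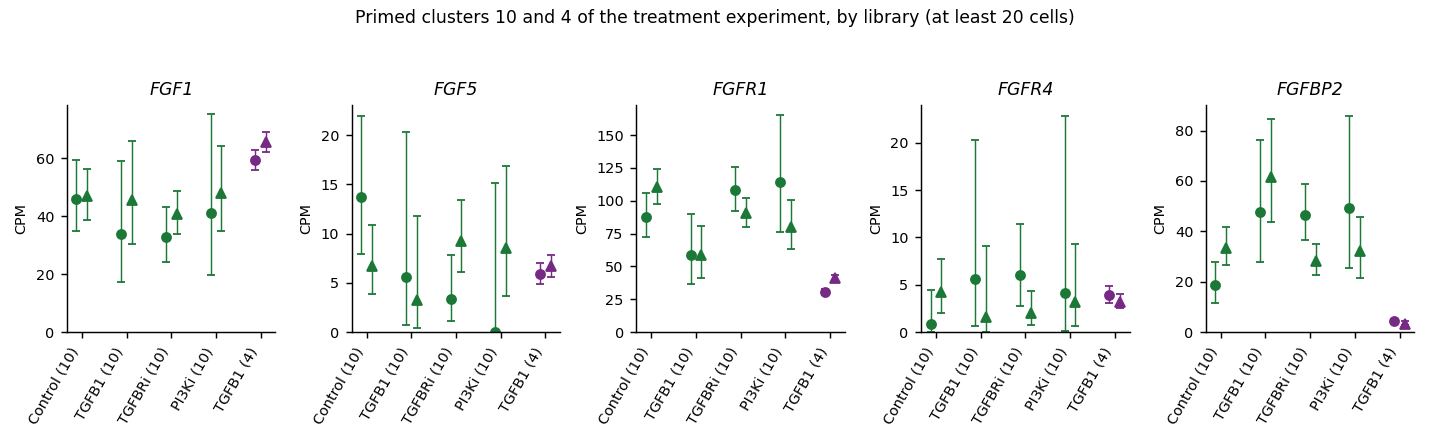
CPM of 5 members in primed clusters 10 (green) and 4 (purple) of the treatment experiment, 1 point per library with at least 20 cells of the cluster (circles r1, triangles r2) and 95% Poisson intervals, which cover counting error only. Cluster 4 under TGFB1 lies high in FGF1 and low in FGFR1 and FGFBP2 against cluster 10 in every treatment.

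The test of the difference itself, an interaction of state and treatment with the library as a block, called 4 of 8 members under TGFB1, against 9.98% of genes. The log2 change in primed minus that in drug-susceptible cells was -2.68 ± 0.22 for FGFBP2 (adjusted p = 2.839e-31), -1.32 ± 0.17 for FGF1 (adjusted p = 6.075e-13) and -1.202 ± 0.12 for FGFR1 (adjusted p = 2.472e-20). Relative to drug-susceptible cells, the summed FGFBP2 and FGFR1 levels of cells labelled primed were thus lower under TGFB1 than in Control. The difference of FGF1 between TGFB1 and Control was smaller in cells labelled primed. These were mostly cells of cluster 10 in Control and of cluster 4 under TGFB1, so that treatment and cluster cannot be told apart. Within cluster 10, which had few cells under TGFB1, FGFBP2 was higher and FGFR1 and FGF1 were lower than in Control. For FGFBP2 and FGF1 this was the reverse of the change in the primed sums, and it was not tested. Without Control r2 the interaction value of FGFBP2 was -1.91 (adjusted p = 0.00014). For FGF7 it was -3.08 ± 0.87 (adjusted p = 0.00668), on 4 and 15 primed UMIs in Control, 23 and 27 under TGFB1 and 4 to 13 in drug-susceptible cells. That call was lost without Control r2 (-2.71, adjusted p = 0.361), without TGFB1 r1 (-2.47, adjusted p = 0.457) and without TGFB1 r2 (-3.53, adjusted p = 0.0665). DESeq2 called the other 3 members at larger adjusted p, 3.943e-10 for FGFBP2, 3.719e-07 for FGF1 and 3.856e-09 for FGFR1. It gave no adjusted p for FGF7.

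The summed FGFBP2 level of Control cells in the treatment experiment went the other way from the first experiment. Primed Control cells had 17.1 and 32.2 CPM and drug-susceptible Control cells 13.1 and 11.9 CPM, while in each of the 8 wells of the first experiment the primed cells were lower. The shares of Control cells with a FGFBP2 UMI did not go that way throughout, at 12 of 94 primed cells (12.8%) against 20.2% of drug-susceptible cells in r1 and 33 of 165 primed cells against 20.4% in r2, and after thinning to 5000 UMIs at 4.30% against 6.31% and 9.26% against 5.73%. FGF7 in primed Control cells was 2.98 and 6.04 CPM, against 5.92 to 24.7 CPM in the primed wells of the first experiment. FGF1 and FGFR1 kept their direction, with 42.5 and 46.7 CPM of FGF1 in primed against 2.76 and 2.78 CPM in drug-susceptible Control cells. The experiments differ in chemistry, gene table and how cells were sorted, which cannot be told apart here.

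Under TGFBRi no member was called. Over all cells 0 of 8 members passed in edgeR, against 2.53% of genes (2 at an unadjusted p under 0.05, 0 with DESeq2), and in drug-susceptible cells 0 of 7, against 2.81% (2 unadjusted, 0 with DESeq2). In primed cells 0 of 4 passed, against 0.375% (0 unadjusted, 0 with DESeq2), and the interaction called 0 of 8, against 0.551% (2 unadjusted, 0 with DESeq2). Over all cells DESeq2 gave no adjusted p to FGFR2 and FGF7, and in drug-susceptible cells none to FGF2, FGF5 and FGFR2. In primed cells it gave none to FGF5, and in the interaction it gave an adjusted p to FGF1 and FGFR1 only. FGF1 stood at 3.15 and 3.21 CPM in drug-susceptible and 32.7 and 40.6 CPM in primed cells, FGFR1 at 20.1 and 20.7 and at 108 and 90.5 CPM, and FGFBP2 at 11.6 and 10.6 and at 46.7 and 28.4 CPM. The FGFR1 values of drug-susceptible cells lay just above both Control libraries (18.0 and 18.1 CPM, adjusted p = 0.213).

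Under PI3Ki FGF5 and FGF1 fell over all cells. Called were 3 of 8 members, against 12.7% of genes, all downward. FGF5 went from 1.02 and 0.735 CPM to 0.313 and 0.327 CPM, -1.34 ± 0.24 (adjusted p = 0.000589, 2.54-fold lower), and FGF1 from 3.45 and 4.14 to 2.02 and 2.51 CPM, -0.63 ± 0.11 (adjusted p = 0.000364). The primed share was 0.647% and 1.21% in these libraries. FGFR4 (5.35 and 4.73 CPM, -0.32 ± 0.09, adjusted p = 0.0236) lost its call with DESeq2 (adjusted p = 0.110), without the replicate block (0.121) and without any 1 of the 4 Control and PI3Ki libraries (0.0655 to 0.315, with log2 changes from -0.37 to -0.26). In drug-susceptible cells 2 of 7 were called, against 12.1%: FGF5, at 0.315 and 0.255 CPM (-1.16 ± 0.25, adjusted p = 0.00289), and FGFR4, at 5.36 and 4.74 CPM (-0.34 ± 0.09, adjusted p = 0.0189). The FGF5 call was lost without Control r1 (-0.93, adjusted p = 0.0805) and without PI3Ki r2 (-1.15, adjusted p = 0.0652), and DESeq2 gave no adjusted p for this gene. That of FGFR4 was lost with DESeq2 (adjusted p = 0.0928), without the replicate block (0.114) and without any 1 of the 4 libraries (0.0657 to 0.351, with log2 changes from -0.40 to -0.27). FGF1 in drug-susceptible cells was 1.89 and 2.16 against 2.76 and 2.78 CPM and did not pass (adjusted p = 0.0659). In primed cells, of which these libraries held 25 and 70, 0 of 4 passed in edgeR, against 1.78% (0 unadjusted, 0 with DESeq2), and the interaction called 0 of 8, against 1.21% (0 unadjusted, 0 with DESeq2). DESeq2 gave an adjusted p only to FGF1 and FGFR1 in primed cells and only to FGFR1 in the interaction, and so could not call the other members.

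**Figure D4:**
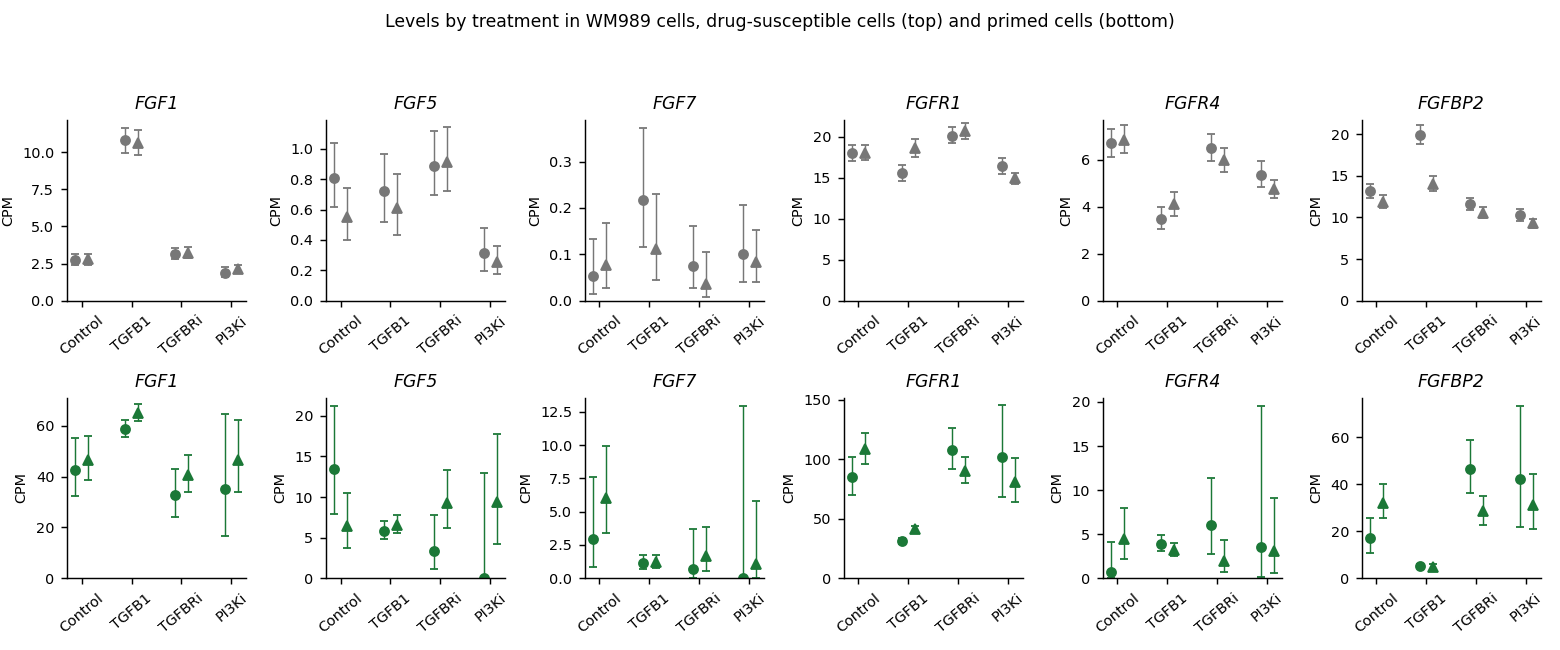
CPM of 6 members by treatment in drug-susceptible (grey, top) and primed cells (green, bottom) of the treatment experiment, 1 point per library (circles r1, triangles r2) with 95% Poisson intervals, which cover counting error only. In drug-susceptible cells both TGFB1 libraries lie high in FGF1 and low in FGFR4. In primed cells they lie low in FGFR1 and FGFBP2.

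FGF2 and FGFR2 were tested over all cells, in drug-susceptible cells and in the interaction and were not called, and neither had counts enough to be tested in primed cells alone. FGF2 in drug-susceptible cells was 0.743 and 1.04 CPM in Control, 0.485 and 0.704 under TGFB1 (adjusted p = 0.0586), 0.877 and 1.04 under TGFBRi and 0.715 and 1.05 under PI3Ki, so that the libraries of r2 lay higher in all 4. FGFR2 had at most 16 UMIs in a state of a library, and FGFR3, with 1 UMI in all 8 libraries, was not tested.

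Other genes of the pathway also moved with TGFB1, which over all genes called 29.0% in all cells, 14.9% in drug-susceptible cells, 13.3% in primed cells and 9.98% in the interaction. In primed cells 9 of the 14 feedback and target genes tested were called, each downward, with a median log2 change of -0.60 against -0.001 for all genes, and the interaction called 9 of 16, each downward. SPRY1 was lower by 1.48 ± 0.15 on the log2 scale (adjusted p = 2.649e-10), PHLDA1 by 0.95 and ETV1 by 0.94. Primed cells were mostly of cluster 10 in Control and of cluster 4 under TGFB1. Treatment and cluster therefore cannot be told apart in the primed-cell and interaction values given here. In drug-susceptible cells 1 of 16, SPRY2 (0.32), rose and 1, ETV4 (-0.23), fell. The syndecans SDC1 and SDC2, cell surface carriers of heparan sulfate, rose in primed cells by 2.67 and 1.94, among 3 of 7 co-receptors and binding proteins up and 3 down. Over all cells SDC1 rose by 3.03 ± 0.14 (adjusted p = 8.903e-14), among 5 of 10 up and 1 down. S100A13 rose by 0.78 in drug-susceptible cells (adjusted p = 6.963e-07) and differed between states by -0.94 (adjusted p = 1.252e-24). Of 4 intracellular FGF homologues, which are not secreted, FGF13 rose by 1.57 and FGF14 fell by 1.09 over all cells. Of 10 adaptors 4 were called over all cells, each upward, with SOS1 at 0.48. The lists were named with earlier results of these data known.

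PI3Ki and TGFBRi also moved genes of these lists. Under PI3Ki the decoy receptor gene FGFRL1 fell by 1.496 ± 0.17 over all cells (adjusted p = 2.595e-06), and of 16 feedback and target genes 2 rose and 3 fell, both there and in drug-susceptible cells (12.7% and 12.1% of all genes were called), with CCND1 at -0.43, DUSP5 at -0.55 and SPRY4 at 0.30. Under TGFBRi FGFRL1 rose by 0.71 ± 0.13 (adjusted p = 0.00281), SDC2 fell by 0.64 and S100A13 by 0.36, and of the 16 feedback and target genes 1 passed over all cells, EGR1, with a rise of 0.39 (2.53% of all genes were called).

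ATAC-seq showed which of these genes had open chromatin near their start and how the sorted cells differed from Mix. The value used is the fold enrichment of the highest peak within 1000 bp of the start of the gene record, and 6 members (FGF2, FGF5, FGF7, FGFR1, FGFR2 and FGFR4) had such a peak in all 12 libraries. The libraries held 148575 to 180941 peaks. FGF2 stood at 5.38, 5.66 and 5.81 in Mix, 6.40, 10.4 and 8.81 in EGFR-High, 8.35, 7.44 and 12.2 in NGFR-High and 10.4, 8.98 and 7.44 in EGFR-NGFR-High. FGF5 stood at 12.1, 11.3 and 11.1 in Mix, 17.1, 15.1 and 12.2 in EGFR-High, 21.5, 15.7 and 17.9 in NGFR-High and 28.3, 16.1 and 20.3 in EGFR-NGFR-High. In both genes all 9 libraries sorted for a marker lay above all 3 Mix libraries in fold enrichment, as at 1.64% of gene starts. The sorts share these Mix libraries. In −log10 q, FGF5 in EGFR-High overlapped Mix (exact permutation p = 0.2).

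In fold enrichment within 1000 bp, FGF2 and FGF5 were thus 2 of 6 members above Mix without overlap in each sort, against 3.68% of 12159 gene starts in EGFR-High, 24.8% in NGFR-High and 11.3% in EGFR-NGFR-High. The differences in mean fold enrichment were 2.93, 3.72 and 3.33 for FGF2 and 3.30, 6.85 and 10.1 for FGF5, each with p = 0.1 in the exact two-sided permutation test, the smallest that 3 against 3 libraries allow, and an adjusted p of 0.257 over the 18 tests. Without replicate 3 the difference of FGF2 in NGFR-High was 2.38. Within 250 bp of its start FGF2 lacked a peak in some libraries and was not tested, while FGF5 stayed above Mix without overlap in each sort. The window just before the FGF2 start overlapped a peak in 5 of 12 libraries. The highest peak was not the same in each library: at FGF5 it was chr4:80266265-80266769 in Mix 1 and chr4:80265576-80265791 in Mix 3. FGFR4 stood at 47.0, 45.2 and 44.05 in Mix and 37.1, 40.2 and 33.3 in EGFR-High, a difference of -8.58 (exact permutation p = 0.1), the 1 member of 6 below Mix there, against 11.6% of starts. In the other sorts 0 of 6 lay below Mix without overlap, against 1.95% in NGFR-High and 2.43% in EGFR-NGFR-High. At FGFR1 (27.1 to 35.3 in Mix), FGFR2 (3.77 to 5.82) and FGF7 (16.5 to 19.3) the sorts overlapped Mix. Nothing says whether the 3 libraries of a sort came from separate cultures, so that these p-values measure only the spread between libraries.

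FGF1 and FGFBP2 have a start of the MANE Select transcript, the reference transcript chosen jointly by Ensembl and RefSeq, that lies 11980 and 6134 bp from the start of the gene record. These were looked at after the peaks had been seen. At the MANE Select start FGF1 had a peak in 12 of 12 libraries, from 26.8 to 48.2 with overlap of all sorts. FGF1 RNA differed 14.7-fold between the states of the first experiment, but those were called from RNA and are not the sorts compared here. FGFBP2 also had a peak in 12 of 12, at 40.7 to 55.6 in Mix and 58.1 to 60.5 in EGFR-High, a difference of 11.5 (exact permutation p = 0.1, adjusted p = 0.3). NGFR-High (45.5 to 63.0, exact permutation p = 0.5) and EGFR-NGFR-High (55.6 to 63.4, exact permutation p = 0.2) overlapped Mix, and the share of all genes above Mix at this start was not computed. FGFR3 had no peak within 1000 bp of its start, and the 1 region of its locus lay 16466 bp past the start, beyond the end of the gene.

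**Figure D5:**
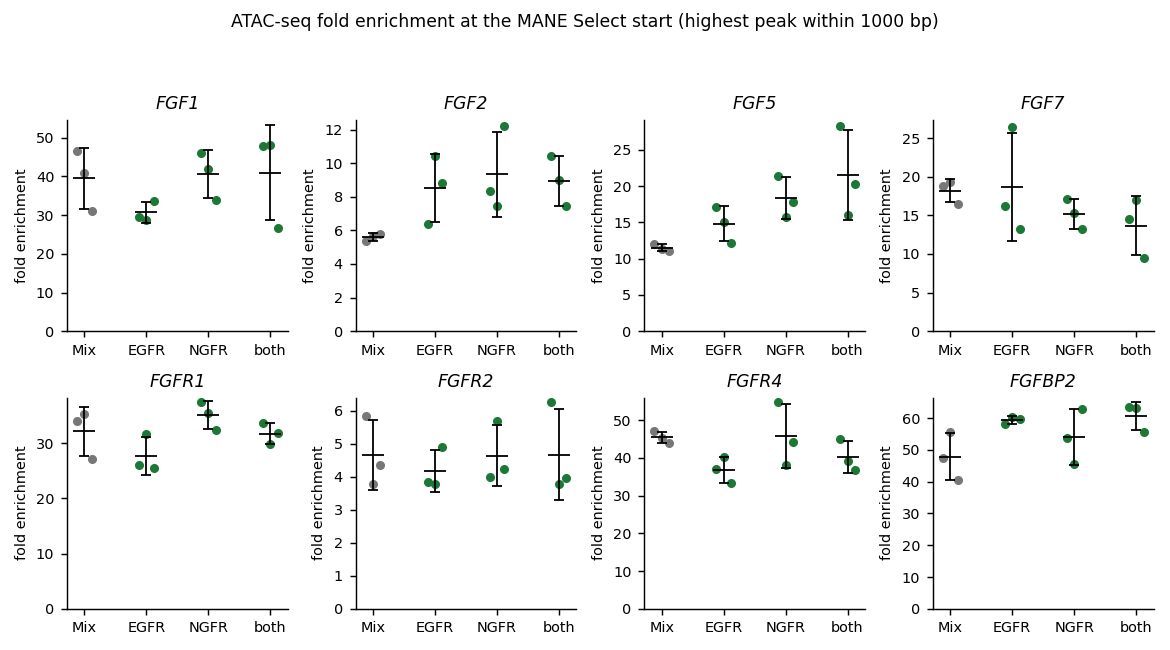
ATAC-seq fold enrichment of the highest peak within 1000 bp of the MANE Select start in 4 sorts (EGFR, NGFR and both stand for the marker-high sorts), 1 point per library, with mean and SD in black (n = 3). FGF2 and FGF5 lie above Mix in each sort, and FGFR4 lies below Mix in EGFR-High.

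The loci of the 9 members, each gene with 10000 bp on either side, held 60 regions. Those in all 3 libraries of a sort and 0 of Mix numbered 3 in EGFR-High, 1 in NGFR-High and 2 in EGFR-NGFR-High, and those in 3 Mix and 0 libraries of a sort numbered 2, in EGFR-High. Of 151844 regions found in at least 3 libraries, 1.58% were in all 3 EGFR-High and 0 Mix libraries, 3.52% in all NGFR-High and 4.80% in all EGFR-NGFR-High libraries but none of Mix. The reverse held for 1.14%, 1.03% and 0.846%. The members' counts are too small to be told from these shares, and the regions are given as a description. FGF5 (chr4:80266639-80336680, plus strand, GRCh38) had 7 regions within 10000 bp, 3 of them in all 12 libraries. The intronic region chr4:80305325-80305932, 38661 bp past the MANE Select start, was in 0 of 3 Mix, 1 EGFR-High, 3 NGFR-High and 3 EGFR-NGFR-High libraries. A second intronic region, chr4:80309706-80309918, was in 0 Mix, 0 EGFR-High, 1 NGFR-High and 3 EGFR-NGFR-High libraries. At FGF1 (chr5:142592178-142698070, minus strand), 10 of 19 regions were in all 12 libraries, and 1, chr5:142600601-142600994, which overlaps an exon, was in 3 EGFR-High and 0 Mix libraries, while chr5:142587446-142587684, in the flank, was in 3 Mix and 0 EGFR-High libraries. EGFR-High also had 1 such gain at FGFR2 (intronic chr10:121481094-121481586) and 1 at FGFBP2 (flanking chr4:15977081-15977483), and 1 such loss at FGF7 (flanking chr15:49421956-49422204). A peak that is missing from a list may only have missed the authors' threshold.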

How the data were processed

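Untreated WM989 cells (8 wells), untreated WM983B cells (1 library), treated WM989 cells (8 libraries) and 12 ATAC-seq libraries were analysed as grouped by the labels. Single-cell values are UMI counts that the authors deposited after alignment to hg38 in Cell Ranger and their own filters on genes per cell and on the percent of mitochondrial reads, with cluster, state and phase labels that were used as they stand. For ATAC-seq the authors deposited MACS2 2.1.1.20160309 peak lists per library (Bowtie2 2.3.4.1, SAMtools 1.1, per the labels), in which fold enrichment is a ratio over background and significance is the −log10 q-value. The Cell Ranger version and gene annotation are not given in the sources used here, and no doublet caller was run.

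UMIs were summed per state, cluster, well or library to give CPM, with exact Poisson and Clopper-Pearson intervals (95%), which cover counting error only; 0 counts were limited at 3 counts of the total. Cells were thinned to 10000, 30000 and 5000 UMIs in the 3 experiments. Treatment sums were tested in edgeR 4.0.16 (R 4.3.3, filterByExpr, TMM, quasi-likelihood, 3 residual degrees of freedom, 4 in the interaction), a p-value being two-sided and adjusted over all genes tested. The SE is the log2 fold change divided by the square root of F. DESeq2 1.42.0, no filter, no replicate block, equal cell numbers and each library left out were alternatives. The edgeR test was first tested on simulated counts in which 200 genes differed, and DESeq2 was not. Replicate was a block because the treatments of a replicate began from the same wells, and r2 minus r1 correlated between treatments (Pearson's r 0.256 to 0.365 across genes). Gene starts come from GENCODE v44 and promoter sequences from RefSeq (GRCh38.p14).

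All 9 members are named, other genes of the pathway at most 3 per list by adjusted p in a contrast, and for the states by examples over 2-fold chosen after their values were seen. Members and lists were chosen with earlier results of these data known.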

Additional observations from a re-analysis of the deposited data

Results flagged for a closer look

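For 4 members the change under TGFB1 differed between primed and drug-susceptible cells by the test of the difference itself (edgeR interaction of state and treatment, adjusted over all genes). The log2 change in primed minus that in drug-susceptible cells was -2.68 for FGFBP2, -1.32 for FGF1, -1.202 for FGFR1 and -3.08 for FGF7. In Control the primed sums rest on 94 and 165 cells, most of cluster 10. Under TGFB1 they rest on 1577 and 1757 cells, most of cluster 4. The part of this in the differences was not tested. Within cluster 10, which had few cells under TGFB1, FGFBP2 was higher and FGF1 lower than in Control, the reverse of the primed sums. The value of FGF7 rests on 4 and 15 primed Control UMIs and lost its call without Control r2 (adjusted p = 0.361).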

How the results depend on the processing

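Called members are few, so a count moves with 1 gene. Under PI3Ki in drug-susceptible cells 2 members were called, 0 with DESeq2 (which gave FGF5 no adjusted p), 1 without the replicate block and 0 to 4 when a library was left out. With a library left out, PI3Ki over all cells called 2 to 5 members, the TGFBRi interaction 0 to 1 and TGFB1 3 to 5 over all cells, 2 to 4 in drug-susceptible cells, 2 to 4 in primed cells and 3 to 5 in the interaction. Pairing by replicate number in ATAC-seq (replicate block, exact sign-flip permutation test) gave p = 0.25 at FGF2 and FGF5, the smallest it allows. The −log10 q in place of fold enrichment turned FGFR1 in EGFR-NGFR-High to 10.8 (from -0.45) and FGFR2 in NGFR-High to 0.14 (from -0.02). Leaving out a replicate number gave ranges across 0 for FGF7 in EGFR-High (-2.92 to 2.28), FGFR1 in EGFR-NGFR-High (-3.0 to 2.11), FGFR2 in EGFR-High (-0.985 to 0.275), NGFR-High (-0.986 to 0.895) and EGFR-NGFR-High (-0.188 to 0.217) and FGFR4 in NGFR-High (-3.52 to 3.99). In G1 cells of WM983B the log2 ratio of primed to drug-susceptible was 1.38 for FGF1 (from 1.06), 1.0 for FGF7 (from 0.12), 0.07 for FGFR2 (from -0.08), -0.16 for FGFR4 (from 0.02) and -0.03 for FGFBP2 (from -0.36). The cause was not tested. Among the comparisons, 134 values with a library left out and 155 under other alternatives were counted as the same, 9 and 5 moved beyond their limit and 7 and 4 reversed. An ATAC-seq value was counted as the same if it kept its sign, at any size, and a number of calls if it stayed within a set ratio. For ATAC-seq, a replicate number was left out of every sort and of Mix at once. Among single genes and shares, 132 values with a library left out kept their sign and call and 20 lost their call. Under other alternatives 53 stayed, 49 moved, each a share after thinning, and 7 lost their call. Low counts limit what can be said of FGFR2, FGFR3 and FGF7 in the treatment experiment.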
